A study of Mus musculus with 8 samples.

Results

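The interstitial collagens and the enzymes that cross-link, cut and protect them were examined in CD31-positive kidney cells of Crim1 mutant and wildtype mice. Members were taken by gene symbol: collagen genes other than Col4a1 to Col4a5, matrix metalloproteinases (Mmp), tissue inhibitors of metalloproteinases (Timp), Adamts proteases, and Lox with Loxl1 to Loxl4. Of 19057 genes named on the array, 82 were members, and 49 of these were detected, meaning that 2 or more of the 8 arrays gave a probe of the gene a detection p under 0.05. Over all genes, 12476 were detected. The detected members were 20 of 36 collagens, 4 of 4 lysyl oxidases, 12 of 21 Mmps, 3 of 4 Timps and 10 of 17 Adamts genes. Adamts2, Adamts5, Col12a1, Col20a1, Col6a3, Loxl2, Mmp15 and Mmp27 had no named probe and are not analysed here.

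The study profiled total RNA from kidney endothelial cells, which were collected with magnetic beads against CD31 (the endothelial surface protein encoded by Pecam1), on 1-colour Illumina expression arrays. Mutant mice carried 2 copies of KST264, a gene-trap insertion in Crim1, and were compared with wildtype mice. The Crim1 protein spans the cell membrane and binds growth factors of the bone morphogenetic protein family. All mice were adults of a C57B6/CD1 background. Each genotype had 2 females, numbered 1 and 3, and 2 males, numbered 2 and 4, with 1 array each. The labels speak of pairs of mice but do not say that each array holds a separate animal, so the spread behind the p-values is that between these samples and may be technical. KST264 is a germline allele, carried by every cell of the mutants and not by endothelial cells alone.

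Interstitial collagens are secreted as triple helices, assembled into fibrils and networks, and held together by bonds that the lysyl oxidases form between chains. Matrix metalloproteinases and Adamts proteases cut collagens and proteoglycans, and the Timps block these proteases by binding their active site. In the kidney, fibroblasts and mural cells are the main known makers of fibrillar collagen, while endothelial cells are known for basement membrane collagens such as Col18a1.

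The sources of signal were checked first. Crim1 itself was lower on every mutant array (5.30 ± 0.61, against 7.63 ± 0.46 on wildtype arrays, log2, SD, n = 4 each; adjusted p = 0.0370 with limma). With the sample number as a term of the fit (the replicate block) it did not pass (adjusted p = 0.160). Nor did it pass with no detection filter (0.0774), with no sex term (0.186) or on the authors' deposited values (0.147). The difference was -0.72 on the authors' values and ran from -2.51 to -2.16 without single arrays. This Crim1 probe was detected on 2 of the 4 mutant arrays and on all 4 wildtype arrays. Median raw signal per array lay between 83.2 and 98.5, and 45.1% to 48.7% of probes were detected. Mutant male 2 was lowest in both, and in detected members (39, against up to 47). On the second principal component (18.4% of the variance) 2 male arrays stood apart at opposite ends. Mutant male 2 lay at 53.8 and wildtype male 4 at -39.9, with the remaining arrays between -14.9 and 3.47. Of 12 endothelial markers 11 were detected (Kdr was not), and all 11 lay lower in mutants, though none passed, with a median difference of -0.60 and a summed linear signal of 39480 to 69570 on mutant arrays and 48700 to 114600 on wildtype arrays. All 6 tubule injury markers lay higher in mutants (median 1.03), with summed signals of 2977 to 5240 on mutant arrays and 1624 to 2072 on wildtype arrays. Of the 7 detected fibroblast markers 5 lay higher in mutants (median 0.44; Lum, Dpt and Meg3 were not detected), with sums of 2079 to 3300 in mutants and 1725 to 3641 in wildtype mice. Of 6 macrophage markers 5 lay higher (median 0.43), with sums of 3906 to 6400 in mutants and 2541 to 6286 in wildtype mice. All 6 proximal tubule markers were detected (median 0.11), with sums of 95490 to 108200 in mutants and 92300 to 107400 in wildtype mice. The part that these cells had in the results below was not tested, and in such bulk RNA fewer cells of a type and less RNA per cell cannot be told apart.

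**Figure D1:**
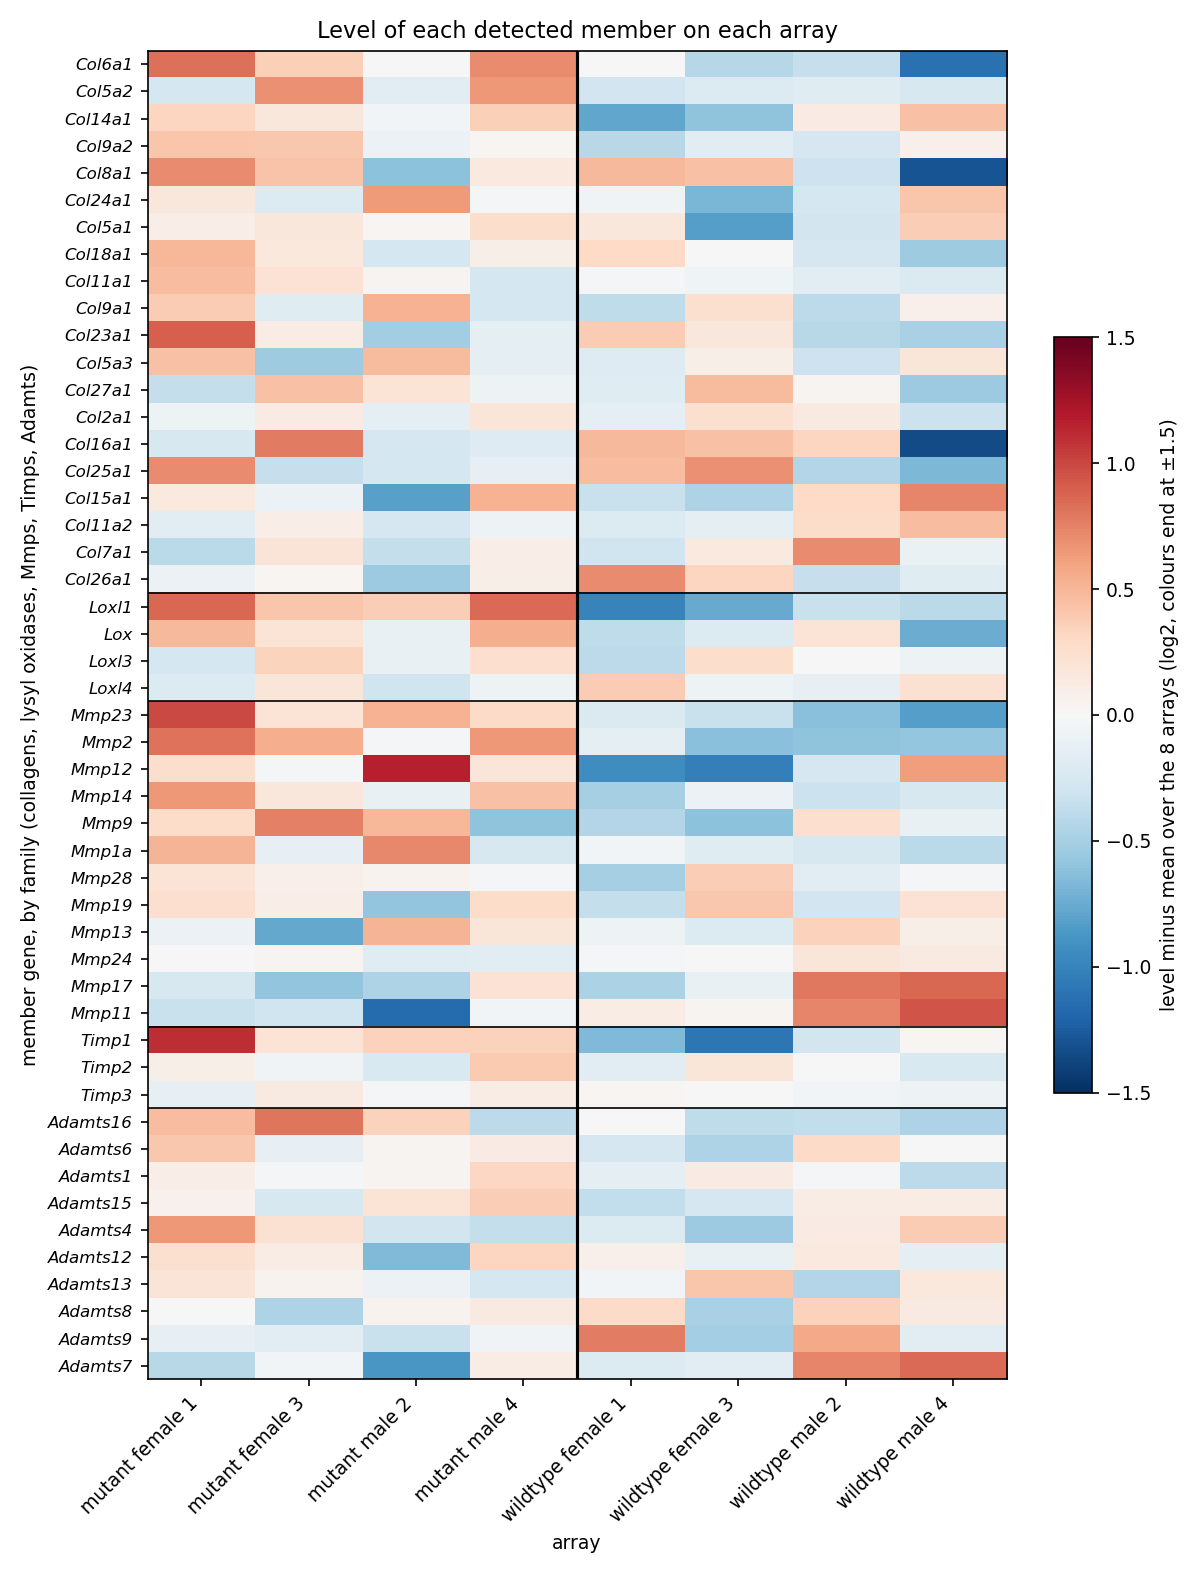
Level of each of the 49 detected members (rows, by family, each family ordered by its genotype difference) on each array (columns, mutant arrays left of the black line and wildtype arrays right of it), as the log2 signal minus that gene's mean over the 8 arrays. Red is above and blue below the gene's mean; Loxl1, Mmp23, Mmp2, Timp1 and Col6a1 are redder on all 4 mutant arrays than on any wildtype array.

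Of the 49 detected members, 32 were detected on all 8 arrays and 17 on 2 to 7. Col5a2 and Loxl3 were detected on 2 mutant arrays (female 3 and male 4) and on no wildtype array. Of all 12476 genes, 156 were detected on no wildtype array and 135 on no mutant array. Mutant female 3 and mutant male 4 also had the largest shares of probes detected (48.1% and 48.7%) and the most members detected (46 and 47). Since Col5a2 and Loxl3 entered through the mutants alone, and since detection decides which members enter at all, the counts and medians over members below are descriptions.

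The chains of the main fibrillar collagens lay at the detection limit. Col1a1, which encodes the alpha 1 chain of collagen I, had raw signals of 95.3, 90.4, 65.7 and 116 on mutant female 1, mutant female 3, mutant male 2 and mutant male 4, against 79.6, 66.6, 75.3 and 79.5 on wildtype female 1, wildtype female 3, wildtype male 2 and wildtype male 4. Only mutant male 4 was above detection. Col1a2, its partner chain, reached 103 and Col3a1, the chain of collagen III, reached 151.4 on the same array, and both were undetected on the other 7. Col6a2, a partner of Col6a1 in collagen VI, was undetected on all 8 arrays with signals of 66.2 to 92.

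The other undetected collagens were Col4a6, Col6a4, Col6a5, Col6a6, Col8a2, Col9a3, Col10a1, Col13a1, Col17a1, Col19a1, Col22a1 and Col28a1. Among the proteases, Mmp1b, Mmp3, Mmp7, Mmp8, Mmp10, Mmp16, Mmp20, Mmp21 and Mmp25 were undetected, as were Adamts3, Adamts10, Adamts14, Adamts17, Adamts18, Adamts19 and Adamts20. Timp4 was above detection on wildtype male 4 alone, at 114.9. For these 33 genes no level or difference could be measured on these arrays.

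The members lie on 18 chromosomes. A run of 10 neighbouring Mmp genes on chromosome 9 holds Mmp13, Mmp12, Mmp1b, Mmp3, Mmp1a, Mmp10, Mmp8, Mmp27, Mmp20 and Mmp7 in that order, and 3 of these (Mmp13, Mmp12 and Mmp1a) were detected. RefSeq start regions of the GRCm38.p6 build were matched for 32 of the 49 detected members. The 4 printed here belong to members with results described below, and give the 250 bases before the annotated start, 5′ to 3′ on the strand of the gene. Capitals mark GGGCGG (the GC box, on either strand) in Timp1, TGANTCA (the site of AP-1 factors) in Col6a1 and Mmp12, and TGANTCA and TATAAA (the TATA box) in Mmp13. RefSeq has 2 start regions for Mmp12, and the one not printed holds none of the 3 motifs. The GC box of Timp1 shows as its reverse complement.
Timp1, chrX:20869916-20870165, plus strand: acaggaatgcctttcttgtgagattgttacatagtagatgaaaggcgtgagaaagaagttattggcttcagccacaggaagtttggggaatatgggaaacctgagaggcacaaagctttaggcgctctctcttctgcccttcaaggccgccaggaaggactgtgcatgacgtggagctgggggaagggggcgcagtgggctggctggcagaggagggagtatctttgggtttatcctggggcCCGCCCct
Col6a1, chr10:76726045-76726294, minus strand: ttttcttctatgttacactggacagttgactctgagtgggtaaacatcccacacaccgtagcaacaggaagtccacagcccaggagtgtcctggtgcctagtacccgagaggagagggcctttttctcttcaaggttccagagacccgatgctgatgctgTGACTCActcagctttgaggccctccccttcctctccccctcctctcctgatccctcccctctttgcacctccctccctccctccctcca
Mmp12, chr9:7347124-7347373, plus strand: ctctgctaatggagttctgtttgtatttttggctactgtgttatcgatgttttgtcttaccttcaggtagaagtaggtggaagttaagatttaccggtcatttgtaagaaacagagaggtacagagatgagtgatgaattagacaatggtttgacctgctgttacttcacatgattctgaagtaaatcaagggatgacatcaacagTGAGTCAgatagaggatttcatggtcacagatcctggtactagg
Mmp13, chr9:7272264-7272513, plus strand: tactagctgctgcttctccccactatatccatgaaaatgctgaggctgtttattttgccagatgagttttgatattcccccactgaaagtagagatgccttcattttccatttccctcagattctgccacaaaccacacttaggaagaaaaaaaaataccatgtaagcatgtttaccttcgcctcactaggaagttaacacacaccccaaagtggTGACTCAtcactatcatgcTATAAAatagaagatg

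In these windows TGANTCA began at -90 in Col6a1, at -44 in Mmp12 and at -35 in Mmp13, counted from the annotated start, and the GC box of Timp1 began at -8. Over windows of 300 bases (250 before to 50 after the start) and both strands, TGANTCA was found in 4 of the 36 windows of the 32 members (11.1%; Col6a1, Mmp12, Mmp13 and Mmp1a) and in 7.81% of 32851 windows of all genes. The 3 detected genes of the chromosome 9 run were thus among its 4 carriers. TATAAA was found in 1 window each of Adamts1, Col11a2, Mmp12, Mmp13 and Mmp1a (13.9% of the members' windows) and in 13.6% of all windows, and in Mmp12 it began 4 bases after the start, outside the printed bases. GGGCGG was found in 24 of the members' 36 windows (66.7%) and in 35.7% of all windows. These letter matches do not overlap each other in the 4 printed windows, and they describe the sequence alone.

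The comparison of mutant with wildtype mice is the study's main contrast. In limma, with both sexes weighted equally and adjustment over all probes, 0 of the 49 members passed an adjusted p of 0.05, where 5 of 12476 genes (0.0401%) did. With the replicate block, and on the authors' deposited values, 0 genes passed. At an unadjusted p under 0.05 there were 13 members (26.5%), against 8.38% of all genes, and each of the alternative settings and fits also passed 0 members. Of the 13 members, 10 lay higher in mutants, a direction and threshold that 3.93% of all genes met, and 3 lay lower, which 4.45% of all genes met. The median genotype difference over members was 0.15 (log2), with 35 of 49 above 0, against 0.02 and 54.3% above 0 over all genes. It was 0.0702 without wildtype female 1, 0.245 without mutant female 3 and 0.0375 on the authors' deposited values. Every mutant array lay above every wildtype array for 5 members (1.82% of all genes did so), and below for 1 member (1.23% of all genes did so). No member passed, so the values below describe these arrays. Signals are normalized log2 values that carry an added offset, which makes differences of dim genes smaller, and levels of different genes cannot be compared because probes differ in brightness.

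**Figure D2:**
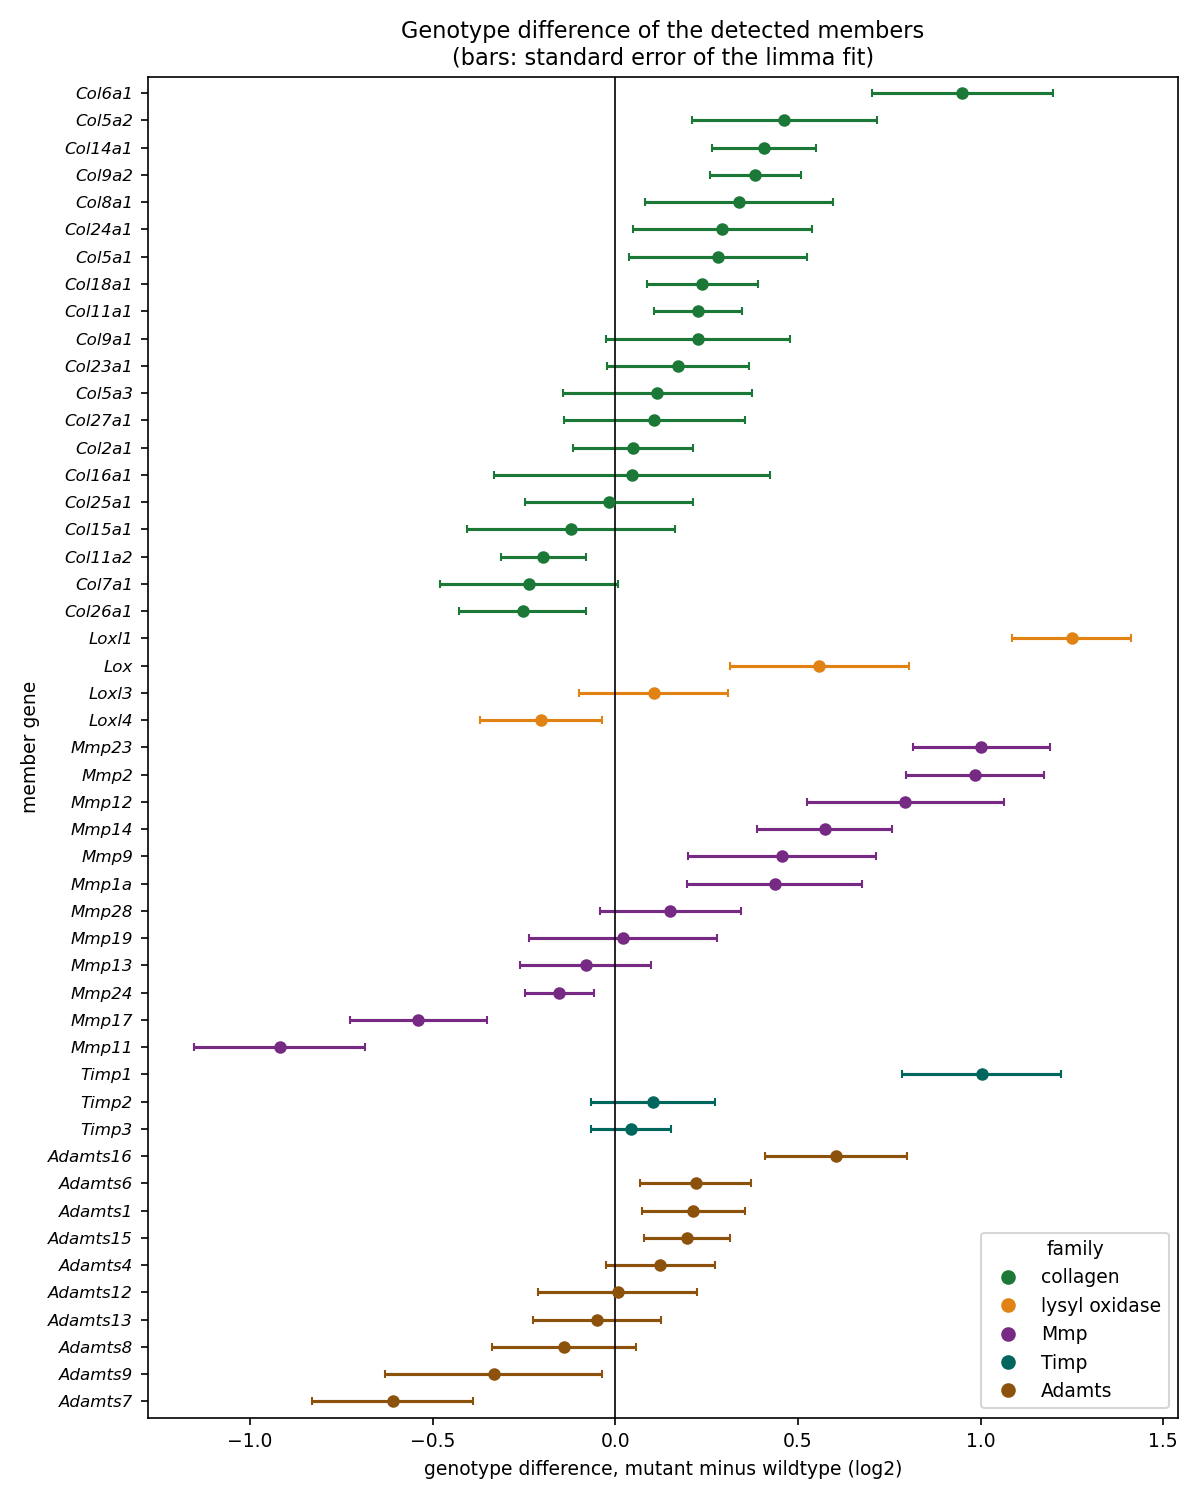
Genotype difference (mutant minus wildtype, log2, horizontal axis) of each of the 49 detected members, by family and by size, with bars for the standard error of the limma fit. Most points lie right of 0, Loxl1 (1.25) farthest to the right and Mmp11 (-0.92) farthest to the left.

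Among the 20 detected collagens 15 lay above 0, with a median genotype difference of 0.20, and 3 had an unadjusted p under 0.05 (Col6a1, Col9a2 and Col14a1). Col6a1 encodes a chain of collagen VI, which forms beaded filaments between fibrils and cells. Its signal was 7.44, 6.97, 6.62 and 7.33 on mutant female 1, mutant female 3, mutant male 2 and mutant male 4, against 6.60, 6.19, 6.26 and 5.50 on wildtype female 1, wildtype female 3, wildtype male 2 and wildtype male 4. All 4 mutant arrays lay above all 4 wildtype arrays, although mutant male 2 lay only just above wildtype female 1. The difference was 0.95 (SE 0.25, 1.93-fold, adjusted p = 0.385), and the other detected probe of the gene gave 0.77. Over the alternative settings it ran from 0.30, on the authors' deposited values, to 1.14.

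Collagen V starts and limits the growth of collagen I fibrils. Its chain Col5a1 averaged 6.96 ± 0.10 on mutant arrays and 6.67 ± 0.53 on wildtype arrays (SD, n = 4 each), a difference of 0.28 (SE 0.24). The mutant arrays were close together and the wildtype arrays spanned 5.99 to 7.18, so the groups overlapped. Col5a2 read 5.46 on mutant female 3 and 5.43 on mutant male 4, where it was detected, and 4.48 to 4.62 on the other 6 arrays, where it was not. These are the arrays on which Loxl3 was detected too, and mutant male 4 is the array on which the collagen I and III chains were above detection.

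Col14a1 coats the surface of collagen fibrils. It read 6.25, 6.09, 5.88 and 6.28 on mutant female 1, mutant female 3, mutant male 2 and mutant male 4, against 5.14, 5.32, 6.04 and 6.36 on wildtype female 1, wildtype female 3, wildtype male 2 and wildtype male 4. The wildtype females were lower than every other array, wildtype male 2 lay among the mutants and wildtype male 4 above them. The difference was 0.93 in females (SE 0.20, adjusted p = 0.908) and -0.12 in males (SE 0.20), and the interaction between genotype and sex was -1.05 (SE 0.28, adjusted p = 0.656). A dimmer probe, detected on 3 arrays, gave -0.08 over both sexes. Fibroblast markers had a median difference of 0.78 in females and 0.09 in males, and their part in the result was not tested.

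Col9a2, known as a cartilage collagen chain that binds to fibrils, showed the same shape. It was detected on both mutant females (5.66 and 5.65) and on neither wildtype female (4.82 and 5.08), a difference of at least 1.33-fold in females (adjusted p = 1 from the fit). In males it read 5.16 and 5.27 in mutants and 4.99 and 5.32 in wildtype mice, which overlap. The fitted difference over both sexes was 0.38 (SE 0.12, adjusted p = 0.446).

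The collagens of vascular basement membranes had overlapping genotypes. Col18a1, whose end fragment is endostatin, had 13.07, 12.74, 12.31 and 12.66 on mutant female 1, mutant female 3, mutant male 2 and mutant male 4, against 12.88, 12.58, 12.33 and 12.05 on wildtype female 1, wildtype female 3, wildtype male 2 and wildtype male 4. The highest array was a mutant and the lowest a wildtype one, with a difference of 0.24 (SE 0.15, adjusted p = 0.761) and of 0.35 and 0.13 at the gene's other probes. Col15a1, its relative in the same zone, averaged 7.36 ± 0.56 in mutants and 7.49 ± 0.56 in wildtype mice (SD, n = 4 each; difference -0.12, SE 0.28). Its difference was 0.42 in females and -0.67 in males, and without mutant male 2 the joint value was 0.21.

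The genotype differences of the remaining collagens lay between -0.25 (Col26a1, SE 0.17) and 0.34 (Col8a1, a network collagen of vessel walls, SE 0.26). Col26a1 gave 0.07 at its dimmer probe. Col8a1 gave 0.59 at its other probe (SE 0.16, adjusted p = 0.399), with 0.06 in females and 1.11 in males. Col16a1, a collagen bound to fibrils, averaged 7.82 ± 0.50 in mutants and 7.78 ± 0.88 in wildtype mice, with wildtype male 4 far below and mutant female 3 far above the other arrays of their genotype. Col11a2, a chain of the fibrillar collagen XI, was 0.14 in females (SE 0.17) and -0.54 in males (SE 0.17), with an interaction of -0.68 (SE 0.23, adjusted p = 0.672). Its other probe, detected on all 8 arrays, gave -0.20 in females and -0.08 in males, and an interaction of the opposite sign (0.12, SE 0.32).

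Of the lysyl oxidases 3 of 4 lay above 0. Loxl1, which cross-links elastin and is needed for elastic fibres, had the smallest p-value of all members. Its signal was 8.81, 8.38, 8.33 and 8.81 on mutant female 1, mutant female 3, mutant male 2 and mutant male 4, against 6.95, 7.21, 7.63 and 7.55 on wildtype female 1, wildtype female 3, wildtype male 2 and wildtype male 4. Every mutant array was above every wildtype array, and the gap between the groups was wider than the range within either. The difference was 1.25 (SE 0.16, 2.38-fold, adjusted p = 0.196), with 1.52 in females (SE 0.23) and 0.98 in males (SE 0.23). It ran from 0.69, on the authors' deposited values, to 1.37 over the alternative settings, with adjusted p from 0.114 to 0.676.

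Lox, which cross-links collagen and elastin, read 6.64, 6.36, 6.04 and 6.69 on mutant female 1, mutant female 3, mutant male 2 and mutant male 4, against 5.77, 5.95, 6.36 and 5.41 on wildtype female 1, wildtype female 3, wildtype male 2 and wildtype male 4. Wildtype male 2 lay within the mutants, so the groups overlapped, and the difference was 0.56 (SE 0.25, adjusted p = 0.595). Loxl4 lay at -0.20 (SE 0.17), and its other probe gave 0.15. Loxl3 differed by 0.11 (SE 0.20) and was undetected in wildtype mice.

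**Figure D3:**
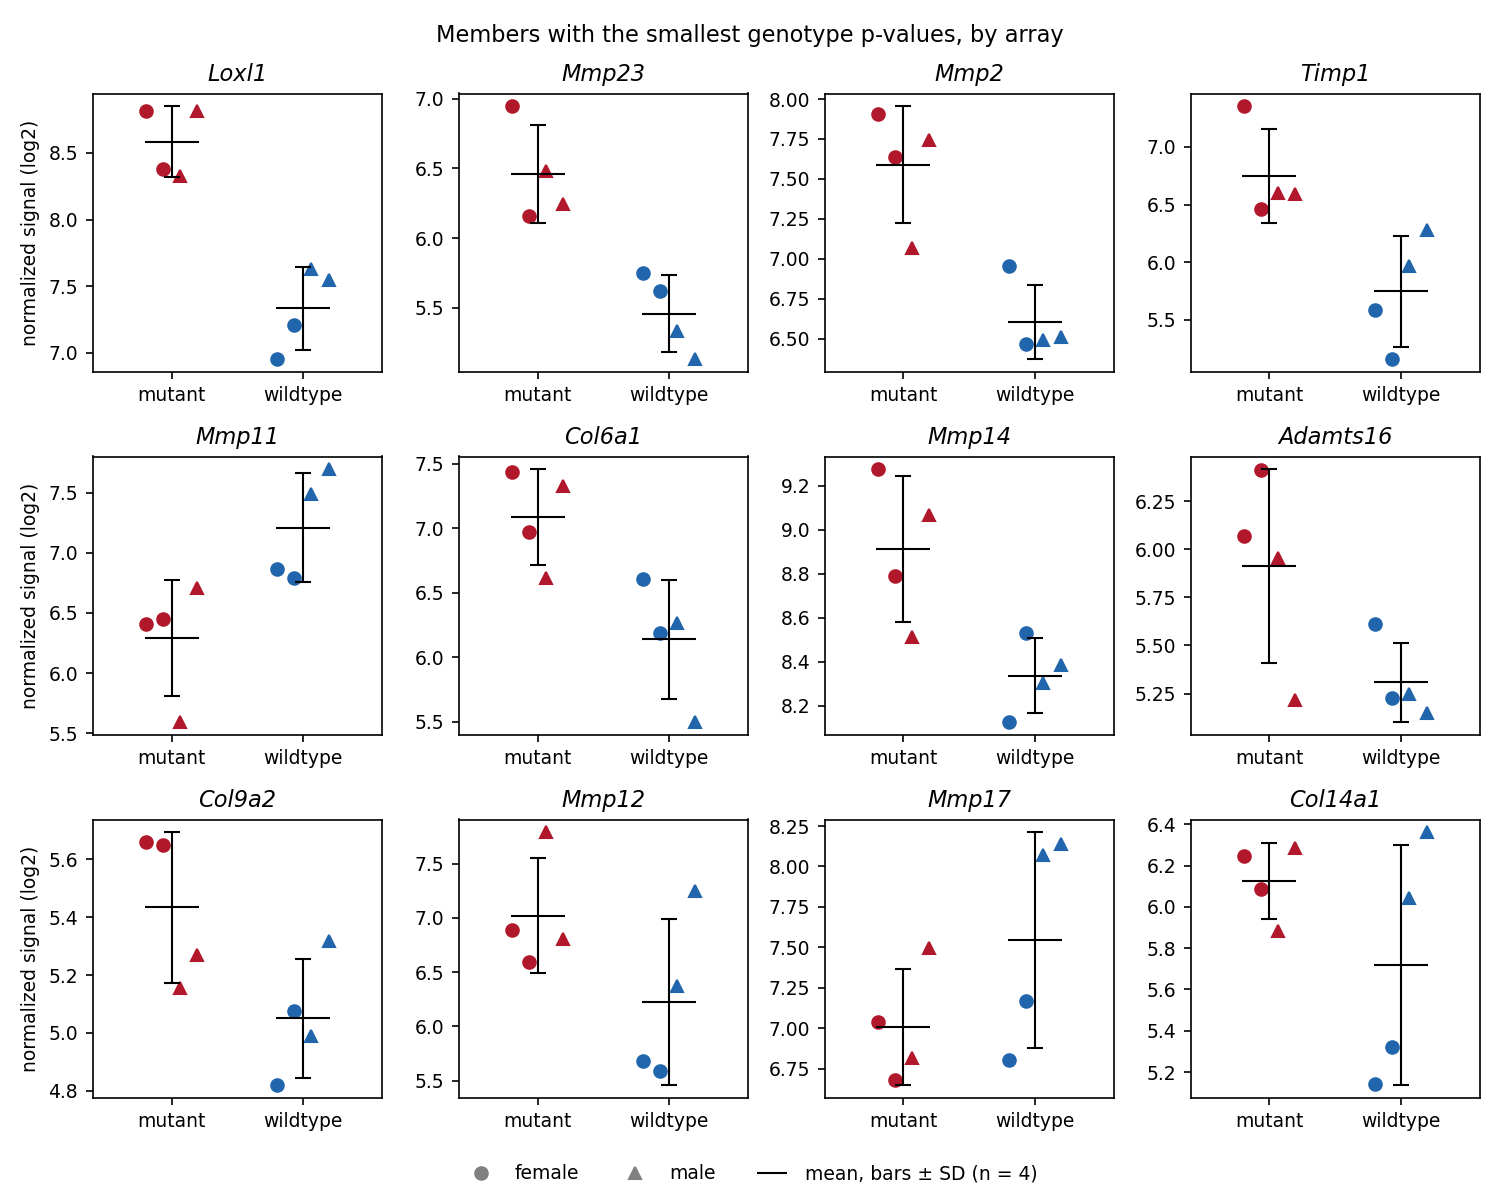
Normalized signal (log2, vertical axes that differ in range and do not start at 0) of the 12 members with the smallest genotype p-values on each array, mutant arrays in red at left and wildtype arrays in blue at right, circles for females and triangles for males, with mean and SD (n = 4). Loxl1, Mmp23, Mmp2, Timp1, Mmp11 and Col6a1 have groups that do not overlap. In Loxl1, Timp1, Mmp11, Mmp12, Mmp17 and Col14a1 the wildtype males stand above the wildtype females.

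Of the 12 detected Mmps 6 had an unadjusted p under 0.05, with 4 higher and 2 lower in mutants and a family median of 0.29. Mmp2 (gelatinase A) cuts denatured collagen and basement membrane collagen. It read 7.91, 7.64, 7.07 and 7.74 on mutant female 1, mutant female 3, mutant male 2 and mutant male 4, against 6.95, 6.47, 6.49 and 6.51 on wildtype female 1, wildtype female 3, wildtype male 2 and wildtype male 4. The groups did not overlap, with mutant male 2 lowest among the mutants and wildtype female 1 highest among the wildtype arrays. The difference was 0.98 (SE 0.19, 1.98-fold, adjusted p = 0.340), with 1.06 in females and 0.90 in males.

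Mmp14 is the membrane-bound protease that activates Mmp2 at the cell surface, together with Timp2. Its values were 9.28, 8.79, 8.51 and 9.07 on mutant female 1, mutant female 3, mutant male 2 and mutant male 4, against 8.13, 8.53, 8.30 and 8.39 on wildtype female 1, wildtype female 3, wildtype male 2 and wildtype male 4. Mutant male 2 lay just below wildtype female 3, and the other 3 mutants lay above all wildtype arrays. The difference was 0.57 (SE 0.18, adjusted p = 0.442), while a dim probe detected on 2 arrays gave -0.42.

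Mmp23, a protease anchored in the membrane by its N-terminal end, read 6.95, 6.16, 6.48 and 6.25 on mutant female 1, mutant female 3, mutant male 2 and mutant male 4, against 5.75, 5.62, 5.33 and 5.13 on wildtype female 1, wildtype female 3, wildtype male 2 and wildtype male 4. All mutant arrays were above all wildtype arrays in both sexes. The difference was 1.00 (SE 0.19, 2.00-fold, adjusted p = 0.340), with 0.87 in females and 1.13 in males. On the authors' deposited values it was 0.23, and the reason for the smaller value was not tested.

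Mmp12, the elastase of macrophages, had 6.88, 6.59, 7.79 and 6.81 on mutant female 1, mutant female 3, mutant male 2 and mutant male 4, against 5.68, 5.59, 6.38 and 7.25 on wildtype female 1, wildtype female 3, wildtype male 2 and wildtype male 4. Mutant male 2 was the highest array and wildtype male 4 lay within the mutants. The difference was 0.79 (SE 0.27, adjusted p = 0.471), with 1.10 in females and 0.49 in males. The macrophage markers given above also lay higher in mutant females (median 0.89) and by less in males (0.17), and their part in the result was not tested.

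On the lower side were Mmp11 and Mmp17. Mmp11, also called stromelysin 3, read 6.41, 6.45, 5.59 and 6.71 on mutant female 1, mutant female 3, mutant male 2 and mutant male 4, against 6.86, 6.79, 7.49 and 7.69 on wildtype female 1, wildtype female 3, wildtype male 2 and wildtype male 4. Every mutant array was below every wildtype array, with the narrowest gap between mutant male 4 and wildtype female 3, and mutant male 2 was the lowest. The difference was -0.92 (SE 0.23, adjusted p = 0.376), with -1.44 in males (SE 0.33, adjusted p = 0.232) and -0.40 in females (SE 0.33). The interaction was -1.04 (SE 0.47, adjusted p = 0.738), so a difference between the sexes was not shown.

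Mmp17, a protease held to the membrane by a lipid anchor, had 7.04, 6.68, 6.81 and 7.50 on mutant female 1, mutant female 3, mutant male 2 and mutant male 4, against 6.80, 7.17, 8.07 and 8.14 on wildtype female 1, wildtype female 3, wildtype male 2 and wildtype male 4. The 2 wildtype males were highest and the other 6 arrays overlapped. Its difference was -0.95 in males (SE 0.26, adjusted p = 0.270) and -0.13 in females (SE 0.26). Endothelial markers had the same shape, with a median difference of -0.95 in males and -0.23 in females, and their part in the result was not tested.

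The other 6 Mmps had unadjusted p of 0.05 or more. Mmp9 (gelatinase B, made by neutrophils and macrophages among others) averaged 6.19 ± 0.59 in mutants and 5.74 ± 0.38 in wildtype mice (SD, n = 4 each), with 1.04 in females (SE 0.36, adjusted p = 1) and -0.13 in males (SE 0.36). Mmp24, a membrane-type protease, stood at 10.34 ± 0.11 in mutants and 10.49 ± 0.10 in wildtype mice, a difference of -0.15 (SE 0.09). Mmp13 (collagenase 3) differed by -0.08 (SE 0.18), and its other probes gave -0.15 and 0.46. The last 3 were Mmp1a (0.44), Mmp28 (0.15) and Mmp19 (0.02).

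Among the inhibitors, Timp1, a secreted inhibitor that is induced by cytokines, read 7.35, 6.46, 6.60 and 6.59 on mutant female 1, mutant female 3, mutant male 2 and mutant male 4, against 5.58, 5.16, 5.97 and 6.28 on wildtype female 1, wildtype female 3, wildtype male 2 and wildtype male 4. The groups did not overlap, but mutant female 3 was only just above wildtype male 4, and wildtype female 3 was below detection. The difference was 1.00 (SE 0.22, 2.00-fold, adjusted p = 0.352). It was 1.53 in females (SE 0.31, adjusted p = 0.852) and 0.47 in males (SE 0.31), with an interaction of -1.06 (SE 0.43, adjusted p = 0.712). At a further probe, detected on 6 arrays, the groups overlapped, with 6.07 to 7.16 on mutant arrays and 4.83 to 6.22 on wildtype arrays (difference 1.05, SE 0.19, adjusted p = 0.340). Both wildtype females were undetected there, so the difference was at least 2.905-fold in females (adjusted p = 0.541 from the fit), against 0.17 on the log2 scale in males.

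Timp2 and Timp3 were detected on all 8 arrays, and their genotypes overlapped. Timp3, which binds to the matrix and also inhibits Adamts proteases, averaged 14.72 ± 0.12 in mutants and 14.68 ± 0.04 in wildtype mice (SD, n = 4 each), and its 3 probes gave 0.04 (SE 0.11), -0.09 and -0.09. Timp2 averaged 10.38 ± 0.26 on mutant arrays and 10.28 ± 0.18 on wildtype arrays, a difference of 0.10 (SE 0.17).

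The 10 detected Adamts genes had a median genotype difference of 0.06, with 6 above 0. Adamts16 was detected on 4 mutant and 2 wildtype arrays and read 6.07, 6.41, 5.95 and 5.21 on mutant female 1, mutant female 3, mutant male 2 and mutant male 4, against 5.61, 5.23, 5.25 and 5.15 on wildtype female 1, wildtype female 3, wildtype male 2 and wildtype male 4. Mutant male 4 lay among the wildtype arrays. The difference was 0.60 (SE 0.19, adjusted p = 0.442).

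Adamts7, which cuts the cartilage matrix protein COMP, had 5.84, 6.21, 5.38 and 6.36 on mutant female 1, mutant female 3, mutant male 2 and mutant male 4, against 6.05, 6.10, 6.99 and 7.11 on wildtype female 1, wildtype female 3, wildtype male 2 and wildtype male 4. As for Mmp17, the wildtype males were the 2 highest arrays. The difference was -1.18 in males (SE 0.31, adjusted p = 0.256) and -0.04 in females (SE 0.31), with an interaction of -1.13 (SE 0.44, adjusted p = 0.705).

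Adamts4, which cuts the proteoglycans aggrecan and versican, had the smallest interaction p of the members. It read 5.65 and 5.22 in mutant females and 4.79 and 4.46 in wildtype females, where it was undetected, a difference of at least 1.145-fold (adjusted p = 1 from the fit). In males it read 4.72 and 4.63 in mutants and 5.11 and 5.37 in wildtype mice, the opposite order. The interaction was -1.38 (SE 0.30, adjusted p = 0.653), and the gene was detected on only 3 arrays.

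Adamts13, which cuts von Willebrand factor, averaged 5.83 ± 0.20 in mutants and 5.88 ± 0.36 in wildtype mice (SD, n = 4 each; difference -0.05, SE 0.17). Adamts1, a versican-cutting protease, averaged 7.34 ± 0.15 in mutants and 7.13 ± 0.22 in wildtype mice (difference 0.21, SE 0.14), and its other probes gave 0.32 and -0.26. Adamts9, a relative of Adamts1, differed by -0.33 (SE 0.30), with the 4 mutant arrays within 8.22 to 8.51 and the wildtype arrays from 8.05 to 9.33. The remaining members were Adamts6 (0.22), Adamts8 (-0.14), Adamts12 (0.01) and Adamts15 (0.20).

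**Figure D4:**
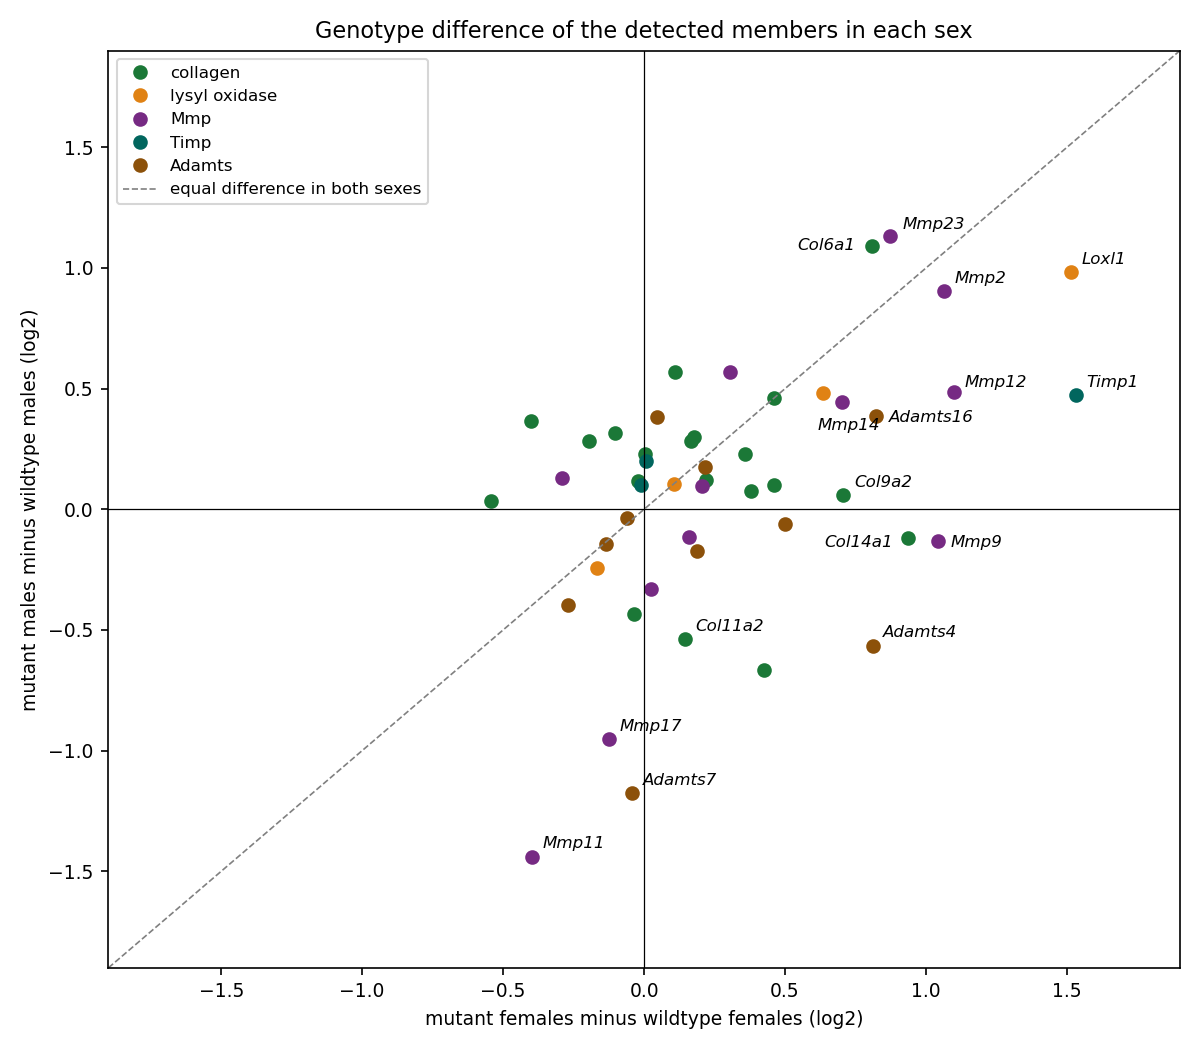
Genotype difference of each of the 49 detected members in females (horizontal axis, mutant females minus wildtype females, log2) and in males (vertical axis, mutant males minus wildtype males, log2), coloured by family, with a dashed line where both are equal. Mmp23, Col6a1, Mmp2 and Loxl1 are high in both sexes, while Timp1, Mmp9, Col14a1 and Adamts4 lie to the right of the line.

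Within females 0 members passed the adjusted threshold (0% of all genes did). At an unadjusted p under 0.05 there were 11 members (22.4%), all 11 higher in mutants, and the median difference was 0.18. Of all 12476 genes 481 (3.86%) reached this p, 268 higher and 213 lower in mutant females. Within males 0 members passed (0% of all genes), with 10 at an unadjusted p under 0.05 (20.4%), against 11.1% of all genes. Of these 10, 4 lay higher and 6 lower in mutant males, where 648 of all genes lay higher and 731 lower. The median over members was 0.12. The sign was the same in both sexes for 33 of the 49 members (67.3%), and for 51.2% of all genes.

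The interaction, the difference in males minus that in females, passed for 0 members (0% of all genes). An unadjusted p under 0.05 was reached by 6 members (12.2%), against 846 of all genes (6.78%). Of those 846 genes, 432 had an interaction below 0. In all 6 members the interaction was below 0 at the probe that represents the gene. These were Adamts4, Col14a1, Col11a2, Col9a2, Adamts7 and Timp1, although the other probe of Col11a2 gave a value above 0 and that of Col14a1 -0.04. The other probe of Col8a1, a gene not among the 6, had an interaction above 0 (1.05, SE 0.33, adjusted p = 0.656 with limma). Over all 8 arrays mutant female 1 had the highest signal for 14 of the 49 members (28.6%, where it was highest for 14.1% of all genes), and wildtype male 4 the lowest for 13 (26.5%, against 17.3% of all genes).

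The sexes were compared with both genotypes weighted equally. In this contrast 0 members passed at the probe that represents each gene, where 465 genes (3.73%) did, and 11 members (22.4%) had an unadjusted p under 0.05, close to the 21.5% of all genes. All male arrays lay above all female arrays for Adamts15 and Mmp13 (5.53% of all genes did so) and below them for Col23a1 and Col8a1 (8.47% of all genes did so). Of the 11 members 7 were collagens, 6 of them lower in males. Both members with the smallest p, Col23a1 and Col8a1, were among these 6.

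Col8a1 read 7.04, 7.79, 7.34 and 6.35 on mutant male 2, mutant male 4, wildtype male 2 and wildtype male 4, against 8.36, 8.08, 8.13 and 8.09 on mutant female 1, mutant female 3, wildtype female 1 and wildtype female 3. The females lay within a narrow band above all males, and wildtype male 4 was far below the other arrays. The difference was -1.03 (SE 0.26, adjusted p = 0.0891). A further Col8a1 probe of similar brightness fell in males by 1.13 on the log2 scale (SE 0.16, adjusted p = 0.0194), the only 1 of the 74 detected member probes that passed in any contrast. It also passed under each of the other settings run on this probe with all 8 arrays. Without single arrays its adjusted p lay between 0.0232 and 0.085, and it no longer passed without any one of the 4 female arrays or without wildtype male 4.

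Col23a1, a collagen anchored in the cell membrane, had 4.91, 5.29, 5.02 and 4.94 on mutant male 2, mutant male 4, wildtype male 2 and wildtype male 4, against 6.32, 5.54, 5.82 and 5.61 on mutant female 1, mutant female 3, wildtype female 1 and wildtype female 3. All males lay below all females (difference -0.78, SE 0.19, adjusted p = 0.0860), and the gene was detected on 5 arrays. Col25a1, also a membrane collagen, was detected on 4 arrays and differed by -0.76 (SE 0.23, adjusted p = 0.134). Mutant female 3 (5.04) lay among the males (4.71 to 5.26), so the sexes overlapped. Without that array the difference was -1.02. The gene's other probes, each detected on 2 arrays, gave 0.35 and -0.06. Col18a1 differed by -0.48 (SE 0.15, adjusted p = 0.144) with the sexes overlapping.

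Mmp17 lay higher in males (difference 0.71, SE 0.19, adjusted p = 0.101), through the wildtype males given above, and passed without mutant male 2 (0.88, adjusted p = 0.0478). Mmp13 read 9.89, 9.56, 9.72 and 9.46 on mutant male 2, mutant male 4, wildtype male 2 and wildtype male 4, against 9.28, 8.60, 9.30 and 9.16 on mutant female 1, mutant female 3, wildtype female 1 and wildtype female 3. All males were above all females, with mutant female 3 lowest by a wide margin, and the difference was 0.57 (SE 0.18, adjusted p = 0.142). At the gene's other probes the sexes overlapped, with 0.24 at the one detected on all 8 arrays and 0.15 at the one detected on 3. Adamts15 averaged 6.52 in males and 6.12 in females, a difference of 0.39 (SE 0.12, adjusted p = 0.129).

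**Figure D5:**
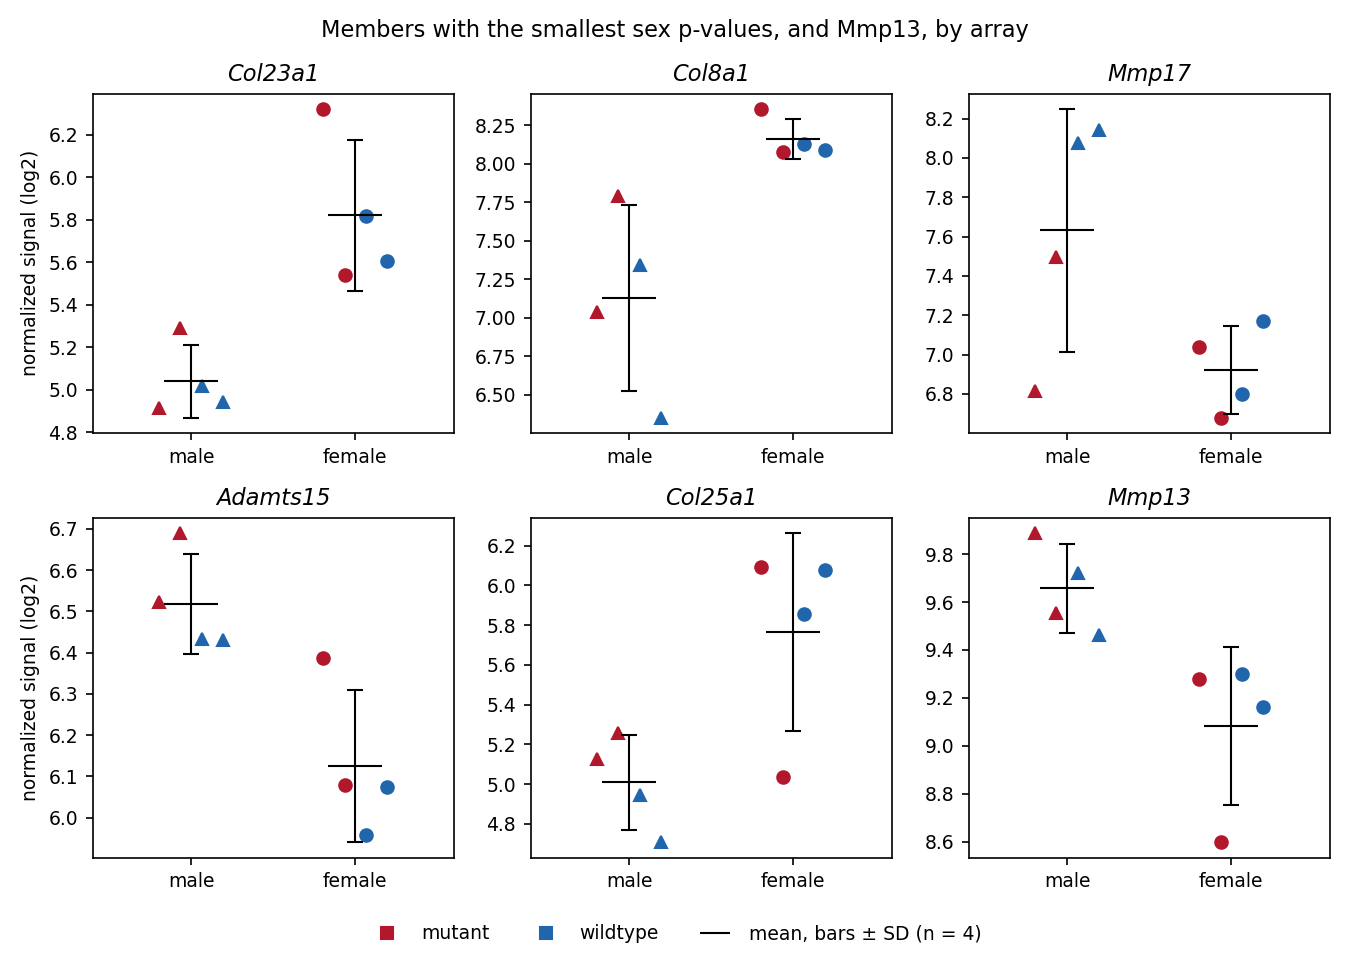
Normalized signal (log2, vertical axes that differ in range and do not start at 0) of the 5 members with the smallest sex p-values and of Mmp13 on each array, males at left as triangles and females at right as circles, mutant arrays in red and wildtype arrays in blue, with mean and SD (n = 4). Male arrays lie below all female arrays for Col23a1 and Col8a1 and above them for Adamts15 and Mmp13.

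Genes that make, bind or activate the members' proteins were read from 5 lists. In each of them 0 genes passed in the genotype contrast, where 0.0401% of all genes did. An unadjusted p under 0.05 was reached by 8.38% of all genes, 3.93% higher and 4.45% lower in mutants. Of 20 detected genes of collagen folding and processing, 10 lay above 0 (median -0.0026), and 3 had an unadjusted p under 0.05. These were P4ha1, a subunit of prolyl 4-hydroxylase, at 0.59 (SE 0.13, adjusted p = 0.352), the collagen galactosyltransferase Colgalt2 at -0.80 (SE 0.29) and Pcolce, the enhancer of procollagen cleavage, at 0.35 (SE 0.14). P4ha1 ranged from 8.31 to 9.14 on mutant arrays and from 7.90 to 8.19 on wildtype arrays, so its groups did not overlap. Colgalt2 differed by -0.12 in females and by -1.48 in males.

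Of 16 detected matrix partners 11 lay above 0 (median 0.28). At an unadjusted p under 0.05, 7 were higher (3.93% of all genes were) and 1 lower (4.45% of all genes were). The elastic fibre protein Fbln1 differed by 1.33 (SE 0.21, adjusted p = 0.266), the collagen-binding proteoglycan Dcn by 0.88 (SE 0.12, adjusted p = 0.205) and the tenascin Tnxb by -0.98 (SE 0.26, adjusted p = 0.385). Dcn and Fbln1 also stand in the fibroblast list. Fn1, Tnc, Thbs1, Tgfbi and Pcolce were the other 5 on the higher side.

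The 6 detected genes of the plasminogen system, the cascade that generates plasmin, had a median of -0.18, with Plau at 0.35 (SE 0.16), Serpinf2 at 0.33 (SE 0.17) and Plat at -0.33 (SE 0.20). Of 12 detected membrane proteases and inhibitors (median 0.06), Adam15 at -0.33 (SE 0.12) and Reck, a membrane inhibitor of Mmps, at -0.45 (SE 0.17) had an unadjusted p under 0.05, and Mme followed at 0.31 (SE 0.13). The 6 detected collagen receptors had a median of 0.07 and none reached an unadjusted p under 0.05, with the integrins Itga1 at 0.15, Itga2 at 0.27 and Itgb1 at -0.15. Between the sexes, 5 genes of these lists passed, where 3.73% of all genes did. They were 3 of 20 in collagen folding and processing, 1 of 6 in the plasminogen system and 1 of 12 membrane proteases and inhibitors. Among the matrix partners and the collagen receptors 0 passed. Serpinf2, the inhibitor of plasmin, rose in males by 2.07 (adjusted p = 0.00241), and Crtap, which helps to hydroxylate collagen, by 0.63 (adjusted p = 0.0432). Pcolce2 (-1.36, adjusted p = 0.0332), P3h2 (-0.81, adjusted p = 0.0127) and the endopeptidase Mme (-0.82, adjusted p = 0.0286) fell in males.

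Different probes of a gene did not always point the same way. Of the 49 members 30 had 1 detected probe and 19 had more, and the genotype differences of all detected probes had 1 sign in 8 of the 19. In Mmp14, Col14a1, Adamts6, Adamts9, Adamts12, Col26a1 and Loxl4, among the 11 with mixed signs, the values given are those of the brightest probe.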

How the data were processed

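RNA of 8 samples was hybridised to 1 array each. The authors' deposited table holds an intensity for 45281 probes per array with a detection p-value beside each, per the file headers. The authors' deposited log2 values have no stated derivation and were an alternative. The sources used here give neither the scanner software nor the probe build. There were 0 value columns without a sample. Background was corrected and arrays quantile normalized with neqc (limma 3.58.1, R 4.3.3, offset 16), and the 23841 probes with a detection p under 0.05 on 2 or more arrays were tested. By the platform annotation 34885 probes have 1 symbol, 18 have several and 10378 have none. A gene is represented by its brightest tested probe.

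Means of the 4 groups of genotype and sex were fitted with limma (lmFit, eBayes, 4 residual and 3.05 prior degrees of freedom), and contrasts were two-sided with Benjamini-Hochberg adjustment over all probes at a threshold of 0.05. The model was tested on simulated data. Of 50 probes given a log2 change of 1 between genotypes, 68% were recovered, and of 50 given a change of 2, 96%. Over the 23841 probes 11 calls were false. The number of arrays limits the precision. Fold bounds ("at least") set the brighter mean against, per array, the higher of the lowest detected signal and the probe's own.

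The members, the lists and the tests were chosen with earlier results of these data known. Genes given with a test were the 12 members with the smallest genotype p, the 5 with the smallest p in each other contrast, the 10 brightest, a list by role and the 3 smallest p of each further list; Mmp13 was also plotted by sex, and the further Col8a1 probe was singled out after its value was seen. The series text names pairs of mice. Deviations from the group means correlated weakly between samples of the same number (r across probes 0.100 in females and 0.269 in males). With 2 arrays per group each sex gives a single such r, so a pairing is neither shown nor excluded by it. As a random block the sample number had a correlation of 0.0842. The replicate block and the other alternatives are given in the closing section. Start regions came from RefSeq (GRCm38.p6); Adamts15, Adamts16, Adamts4, Adamts6, Adamts7, Adamts8, Col14a1, Col26a1, Col2a1, Col5a2, Lox, Loxl1, Loxl3, Mmp17, Mmp19, Mmp2 and Mmp9 were not matched. Figures used Python 3.11.15, pandas 2.3.3 and matplotlib 3.10.9.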

Additional observations from a re-analysis of the deposited data

Results flagged for a closer look

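Each of the 49 members was checked in the 4 mutant and the 4 wildtype arrays for an array whose gap to its nearest neighbour made up most of the range. In 98 such groups 4 arrays stood out (4.08%), which is no more than the share of about 1 in 20 that chance flags. Col16a1 read 8.58 on mutant female 3, where the other mutant arrays lay between 7.55 and 7.61. Among wildtype arrays Col16a1 read 6.46 on wildtype male 4, with the others at 8.12 to 8.28. Both outlying arrays moved its genotype difference upward. The difference was 0.05 with all arrays, -0.21 without mutant female 3 and -0.37 without wildtype male 4. Mmp2 read 6.95 on wildtype female 1, above the other wildtype arrays at 6.47 to 6.51 and still below every mutant array. Timp1 read 7.35 on mutant female 1, where the other mutant arrays lay between 6.46 and 6.60. All 4 readings were above the detection limit, and their cause was not tested.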

How the results depend on the processing

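In the genotype contrast, in either sex and in the interaction, 0 members passed under every alternative run; the smallest adjusted p of a member in the genotype contrast ran from 0.105 to 0.676, and members at an unadjusted p under 0.05 numbered 10 to 16. With the replicate block, 0 members passed, their median genotype difference was 0.151 and the smallest adjusted p was 0.292, so it changed no call of a member. Over all genes, 5 passed by genotype in the fit reported, against 0 with the replicate block, 0 on the authors' deposited values, 0 with no filter, 3 with no sex term and 0 to 1 when single arrays were left out. By sex 465 genes passed, against 730 with quantile normalization without background correction, 742 on the authors' deposited values and 133 to 473 when single arrays were left out. In the sex contrast 1 member passed with quantile normalization without background correction and 1 with the mean of all detected probes, both times Col8a1 (-0.72 and -1.08). Leaving out single arrays, 0 to 1 members passed by sex: Mmp17 (0.88) without mutant male 2 and Col25a1 (-1.02) without mutant female 3. The median genotype difference was 0.0375 on the authors' deposited values and ran from 0.0702 (without wildtype female 1) to 0.245 (without mutant female 3) when single arrays were left out. Some differences near 0 changed sign: Col16a1 was -0.01 on the authors' values, and Timp3 was -0.05 and Mmp13 0.08 with the mean of probes. Without single arrays Col15a1 ran from -0.45 to 0.21, Timp3 from -0.02 to 0.11, Mmp13 from -0.25 to 0.09, Col16a1 from -0.37 to 0.46, Adamts13 from -0.20 to 0.10 and Timp2 from -0.05 to 0.26. Of 893 differences of single genes under the alternatives, 877 kept direction and side of the threshold, 12 reversed and 4 newly passed; the causes were not tested. Members near the detection limit have differences that the offset makes smaller.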

Other observations

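Of the cell type lists not given above, the 11 mural and mesangial markers had a median genotype difference of 0.08, with summed signals of 6189 to 9567 on mutant arrays and 6704 to 8813 on wildtype arrays. The 5 collecting duct markers all lay above 0 (median 0.35), the 5 loop and distal tubule markers had a median of -0.18 and the 3 podocyte markers one of 0.06. Among leukocytes, the 4 detected neutrophil markers had a median of -0.36 (Ngp undetected), the 4 T and NK markers one of 0.02 (Cd8a undetected) and the single detected B marker -0.18 (Ms4a1 undetected). In each of these lists 0 genes passed in the genotype contrast with limma.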
